A study of Mus musculus with 4 samples.

Results

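The genes described here are 8 members of the TNF superfamily: the ligands Tnf, Tnfsf9, Tnfsf10, Tnfsf13b and Tnfsf15, and the receptors Tnfrsf1a, Tnfrsf1b and Fas. They were picked by name, through the gene symbol in the authors' table or the transcript for which a probe was designed. The list of members was drawn up with earlier results of these data known. The 8 genes were read by 16 probes, out of 25107 named genes and 56605 probes on the array. Each probe had 1 spot per array, and 12 of the 16 were designed to curated RefSeq mRNAs.

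TNF superfamily ligands are mostly trimeric membrane proteins, several of which are also cut from the cell surface and act at a distance. Their receptors either carry a cytoplasmic death domain, which can lead to caspase activation and cell death, or recruit TRAF adaptor proteins that lead to NF-kB and MAP kinase activation. Macrophages are a major source of TNF after their Toll-like receptors are engaged, and they carry both TNF receptors.

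Total RNA came from macrophages grown out of the bone marrow of male C57BL/6J mice, either wild type or Batf2-/-, with M-CSF (the macrophage growth factor) at 3 ng/ml and harvested on day 5. Batf2 is a transcription factor of the BATF family. Cells of each genotype were left untreated or given R848, a small-molecule agonist of the endosomal Toll-like receptor TLR7, at 100 ng/ml for 8 h. Each of the 4 groups had 1 array, read in 1 colour (Cy3), and all 4 arrays lay on 1 slide. The age of the mice, how many mice gave cells to a group and whether the cultures were separate are not given in the sources used here, and neither is the part of Batf2 that the deletion removes.

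With 1 array per group, no difference below has a replicate check, and no p-value is given. Signals are given relative to the 75th percentile of their own array (the relative signal). The error beside each log2 difference is the one that the scanner software attached to the spots, and it covers measurement on the array only. At bright probes, such as those of Tnfrsf1b, it was nearly the same on every array (0.14), which gives ± 0.20 for a difference. Other probes, spotted 10 times per array, had a smaller SD between spots for such differences, 0.053 to 0.064 at a mean intensity of 100 or more. A difference was called at 2-fold. Where an array was not well above background, the fold is a lower bound, written "at least". It was taken from the brighter array against the dimmer array's detection level, which is the lowest relative signal among probes well above background there, or against the dim probe's own signal if that was higher. Signals of different probes are not compared with each other, since probes differ in how they bind. In bulk RNA of this kind, fewer cells of a type and less RNA per cell cannot be told apart.

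The 75th percentile intensity lay between 252 and 278 on the 4 arrays, and between 60.6% and 71.4% of probes were well above background. No spot was saturated, and no spot of the 8 genes carried an outlier mark. All 8 macrophage markers looked at, among them Adgre1 and Csf1r, were well above background on every array. Batf2 had a relative signal of 0.123 in wild-type untreated cells, 0.357 in wild-type cells with R848 and 0.102 in knockout untreated cells, and it was not well above background in knockout cells with R848. The untreated arrays therefore gave similar Batf2 signals in both genotypes, and whether its probe falls inside the deleted sequence is not known here. The comparisons share arrays: the wild-type response and the untreated genotype difference, for example, both use the wild-type untreated array. Centring each array on its median in place of its 75th percentile moved all log2 values of the wild-type response by 0.15 and of the knockout response by 0.14. That changed no 2-fold call of the 8 genes, but it moved the share of higher genes among all called genes from 46.4% to 60.3% in wild type and from 50.5% to 62.4% in the knockout.

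After R848, Tnf, Tnfsf9, Tnfsf15 and Fas were at least 2-fold higher in both genotypes and Tnfsf13b was at least 2-fold lower in both, each gene read at its brightest probe. The other 3 genes, Tnfsf10, Tnfrsf1a and Tnfrsf1b, lay within 2-fold at that probe. The count of 4 higher genes of 8 compares with 6.34% of all 18743 genes measured in wild type and 7.06% of 19833 in the knockout, and the 1 lower gene with 7.34% and 6.93%. Since the 8 genes were chosen with earlier results of these data known, this count and those below describe the chosen genes only. They are no test of the family. The median log2 response of the 8 genes was 0.83 in wild type and 0.93 in the knockout, against -0.03 and -0.06 over all genes. At the brightest probe designed to a curated RefSeq mRNA, a choice made after the data were seen, Tnfsf10 and Tnfrsf1b joined the higher genes. The count was then 6 of 8 in each genotype, against 6.83% and 7.65% of all genes read that way, and the medians were 1.95 and 2.01. In wild type 1 gene, Tnfsf13b, was then lower, where 8.52% of all genes were, and in the knockout 0 were lower, where 7.67% of all genes were.

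**Figure D1:**
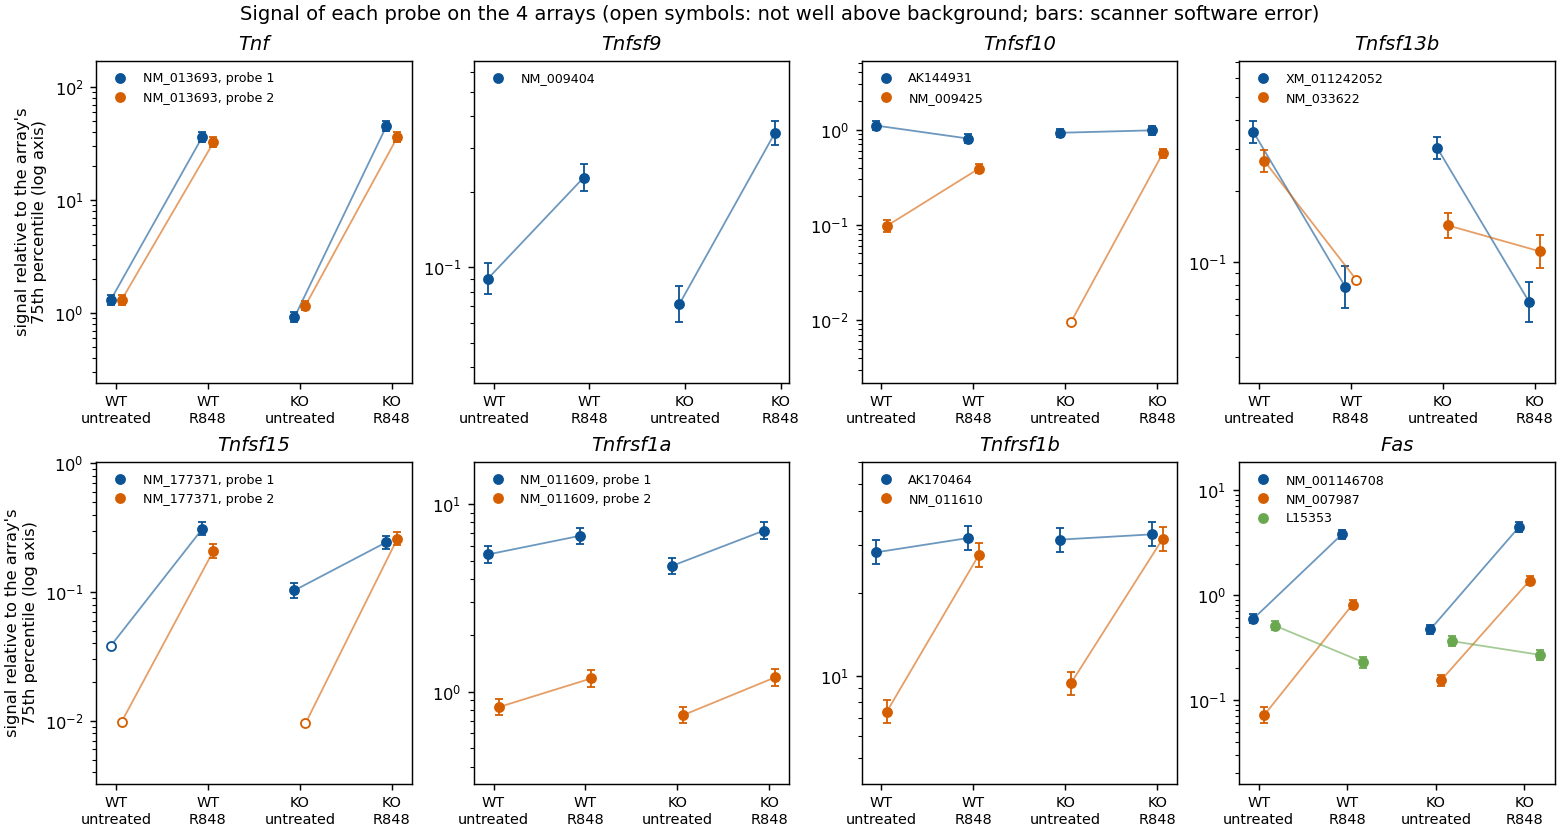
Relative signal (log axis) of each of the 16 probes on the 4 arrays, one panel per gene, with bars for the scanner software's error and open symbols for arrays not well above background. Both Tnf probes stand far higher with R848 in both genotypes, from 0.915 to 1.30 untreated up to 32.4 to 44.9 with R848, while the clone-derived Tnfrsf1b probe stays between 28.2 and 32.8.

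Tnf, at cytoband 17qB1, encodes the founding ligand of the family, which binds both TNFR1 and TNFR2. Its 2 probes are both designed to NM_013693. At probe 1 (A_51_P385099) the relative signal was 1.30 in wild-type untreated cells, 36.3 in wild-type cells with R848, 0.915 in knockout untreated cells and 44.9 in knockout cells with R848. At probe 2 (A_55_P2740937) it was 1.30, 32.4, 1.17 and 36.0 in the same order. Both R848 arrays stood far above both untreated arrays at either probe. At probe 1 the signal was 28.0-fold higher with R848 in wild type (log2 4.81 ± 0.20) and 49.1-fold higher in the knockout (5.62 ± 0.20). At probe 2 it was 24.9-fold (4.64 ± 0.20) and 30.9-fold (4.95 ± 0.20) higher. The knockout response exceeded the wild-type response by 0.81 ± 0.29 on the log2 scale at probe 1, which is over 2 errors, and by 0.31 ± 0.29 at probe 2, which is not. Both values were short of 2-fold, and the 2 probes differed in the untreated signal of the knockout, which was 1.42-fold lower than wild type at probe 1 (-0.50 ± 0.20) and within 2 errors at probe 2 (-0.16 ± 0.20). With R848 the genotypes differed by 0.31 ± 0.20 and 0.15 ± 0.20, each within 2 errors.

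The promoter of Tnf is shown because its probes had the largest responses among those well above background on both arrays compared, and because several members were higher together. The 250 bases before the start site are from RefSeq (GRCm38.p6), chr17:35202008-35202257, minus strand, written 5′ to 3′ with the TATA box match (TATAAA, bases -29 to -24 from the start site) in capitals.
Tnf: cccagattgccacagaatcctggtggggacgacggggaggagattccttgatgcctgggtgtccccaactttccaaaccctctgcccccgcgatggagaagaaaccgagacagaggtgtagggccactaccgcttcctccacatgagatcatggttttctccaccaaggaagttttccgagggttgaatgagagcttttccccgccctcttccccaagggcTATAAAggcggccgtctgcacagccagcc
The promoters of 7 of the 8 genes were found in the RefSeq promoter table, with 8 entries since Tnfsf13b has 2 start sites, and Tnfsf9 had no entry. They were searched on both strands for 4 motifs: the NF-kB consensus, the interferon-stimulated response element (ISRE, GAAA, then any 2 bases, then GAAA), the AP-1 site (TGANTCA) and the TATA box (TATAAA), none of which overlapped another match in these sequences. Of all 32851 mouse promoter windows of this length, 7.25% held the NF-kB consensus, 2.98% the ISRE, 6.75% the AP-1 site and 12.4% the TATA box. Among the 8 entries of these genes, 2 held an ISRE, 2 an AP-1 site, 1 a TATA box and 0 the NF-kB consensus. The windows of Tnfsf10, Tnfsf15, Tnfrsf1a and the first start site of Tnfsf13b held none of the 4. A match describes the letters only, and the lack of one describes only this window.

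Tnfsf9 (17qD), which encodes the 4-1BB ligand, a costimulator of T cells, was read by 1 probe (NM_009404). Its relative signal was 0.0901 in wild-type untreated cells, 0.228 with R848, 0.0711 in knockout untreated cells and 0.343 with R848. All 4 arrays were well above background but dim, and both R848 arrays were above both untreated ones. The signal was 2.53-fold higher with R848 in wild type (1.34 ± 0.27) and 4.82-fold higher in the knockout (2.27 ± 0.28). With R848 the knockout was 1.51-fold above wild type (0.59 ± 0.23), and the responses differed by 0.93 ± 0.39. Both of these exceed 2 errors and neither reaches 2-fold. The untreated arrays differed by -0.34 ± 0.32. With normexp background correction, which adds an offset of 50 intensity units, both responses fell short of 2-fold (0.67 and 0.90). The intensities of this probe were 18.7 to 86.5, so the offset by itself pulls its folds toward no change. At dim probes, here and below, a normexp value under 2-fold is therefore no independent check of a call.

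Tnfsf15 (4qC1) encodes TL1A, the ligand of the death receptor DR3. Both of its probes are designed to NM_177371. At probe 1 (A_55_P2182452) the relative signal was 0.0380 in wild-type untreated cells, which was not well above background, 0.311 in wild-type cells with R848, 0.103 in knockout untreated cells and 0.244 in knockout cells with R848. At probe 2 (A_66_P106167) both untreated arrays were not well above background (0.00982 and 0.00956), and the R848 arrays read 0.210 in wild type and 0.260 in the knockout. With R848 the transcript was detected at both probes in both genotypes. The signal was at least 7.17-fold higher in wild type at probe 1 and at least 4.84-fold higher at probe 2. In the knockout it was 2.37-fold higher at probe 1 (1.24 ± 0.25) and at least 5.93-fold higher at probe 2. The probes differed in untreated knockout cells: probe 1 was well above background there and at least 2.38-fold above wild type, whereas probe 2 was not. The knockout response was therefore smaller by at least 1.60 on the log2 scale at probe 1, while at probe 2, where both untreated arrays were dim, no difference of responses could be measured. With normexp the knockout response at probe 1 was 0.56, the untreated genotype difference 0.29 and the difference of responses -0.45. The responses at probe 2 were then 0.88 in wild type and 0.98 in the knockout, so all of these were under 2-fold.

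Tnfsf10 (3qA3) encodes TRAIL, a ligand of death receptors whose transcription is known to respond to interferons. Its 2 probes gave different responses. The probe designed to NM_009425 had a relative signal of 0.0975 in wild-type untreated cells, 0.390 with R848, 0.00942 in knockout untreated cells, which was not well above background, and 0.564 in knockout cells with R848. The brighter probe, designed to the cDNA clone AK144931, read 1.11, 0.809, 0.928 and 0.985 in the same order. At the RefSeq probe both R848 arrays were above both untreated arrays, and at the clone probe all 4 arrays were close together. The RefSeq probe was 4.0-fold higher with R848 in wild type (2.0 ± 0.26) and at least 12.9-fold higher in the knockout. The clone probe differed by -0.45 ± 0.21 in wild type and 0.09 ± 0.21 in the knockout. The untreated knockout array was at least 2.22-fold below wild type at the RefSeq probe, and with R848 the knockout was 1.45-fold above wild type there (0.53 ± 0.21). The larger knockout response at that probe, by at least 1.68 on the log2 scale, rests on the 1 untreated knockout array that was not well above background. With normexp that difference of responses was 0.69 and the untreated genotype difference -0.33, both under 2-fold. The clone probe gave a difference of responses of 0.54 ± 0.29, within 2 errors.

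Tnfsf13b (8qA1.1) encodes BAFF, the B cell survival factor, and it was the 1 ligand of the 5 called at least 2-fold lower with R848 at its brightest probe. Its brighter probe, designed to the predicted transcript XM_011242052, had a relative signal of 0.355 in wild-type untreated cells, 0.0787 with R848, 0.303 in knockout untreated cells and 0.0679 with R848. The probe to the curated NM_033622 read 0.268 in wild-type untreated cells, 0.0843 with R848, which was not well above background, 0.143 in knockout untreated cells and 0.111 with R848. Both R848 arrays were below both untreated arrays at each probe. The predicted transcript was 4.51-fold lower with R848 in wild type (-2.17 ± 0.33) and 4.47-fold lower in the knockout (-2.16 ± 0.32), and the responses differed by 0.01 ± 0.46. At the curated mRNA the signal was at least 3.18-fold lower in wild type and 1.29-fold lower in the knockout (-0.36 ± 0.30), the latter within 2 errors. That probe was also 1.87-fold lower in knockout than in wild-type untreated cells (-0.90 ± 0.24), whereas the predicted transcript differed there by -0.23 ± 0.21. With normexp the responses of the predicted transcript were -0.88 in wild type and -0.86 in the knockout, the wild-type response of the curated mRNA was -0.71 and its difference of responses 0.57, all under 2-fold.

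The promoter at the second start site of Tnfsf13b is shown since it was the 1 window of the 8 that held matches to 2 of the motifs. It lies at chr8:10006383-10006632, plus strand (RefSeq, GRCm38.p6), with an AP-1 match at -127 to -121 and an ISRE match at -16 to -7 in capitals.
Tnfsf13b: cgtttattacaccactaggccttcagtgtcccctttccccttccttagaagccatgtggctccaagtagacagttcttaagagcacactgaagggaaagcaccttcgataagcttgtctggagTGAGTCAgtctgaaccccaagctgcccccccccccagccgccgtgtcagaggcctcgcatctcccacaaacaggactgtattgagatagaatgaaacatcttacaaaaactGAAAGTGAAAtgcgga
Which of the start sites the cells used was not measured.

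Among the receptors, Tnfrsf1a (6qF3) encodes TNFR1, the death domain receptor of TNF found on most cell types. Probe 1 (A_52_P192426, NM_011609) had a relative signal of 5.40 in wild-type untreated cells, 6.79 with R848, 4.69 in knockout untreated cells and 7.24 with R848. Probe 2 (A_51_P106047, also NM_011609) read 0.830, 1.18, 0.751 and 1.19. At both probes the R848 arrays were above the untreated arrays by less than 2-fold. The increase was 1.26-fold (0.33 ± 0.20) in wild type and 1.54-fold (0.63 ± 0.20) in the knockout at probe 1, and 0.51 ± 0.21 and 0.67 ± 0.21 at probe 2. The genotype differences were within 2 errors at both probes, untreated and with R848.

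Tnfrsf1b (4qE1) encodes TNFR2, which has no death domain and is most abundant on cells of the immune system. The probe to the curated NM_011610 had a relative signal of 7.39 in wild-type untreated cells, 27.6 with R848, 9.36 in knockout untreated cells and 31.6 with R848. The probe to AK170464, a cDNA clone from NOD mouse dendritic cells, read 28.2, 31.8, 31.4 and 32.8. The R848 arrays were well above the untreated arrays at the curated mRNA, and the 4 arrays lay together at the clone. The curated mRNA was 3.73-fold higher with R848 in wild type (1.90 ± 0.20) and 3.38-fold higher in the knockout (1.76 ± 0.20), whereas the clone probe gave 0.17 ± 0.20 and 0.06 ± 0.20. Neither probe showed a genotype difference over 2 errors, and the responses differed by -0.14 ± 0.29 and -0.11 ± 0.29. Which transcripts or exons the 2 probes read was not analysed here, so the call for this gene depends on the probe.

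The promoter of Tnfrsf1b is shown for its ISRE match, read on the minus strand of the gene at -10 to -1, next to the start site, at chr4:145246871-145247120, minus strand (RefSeq, GRCm38.p6).
Tnfrsf1b: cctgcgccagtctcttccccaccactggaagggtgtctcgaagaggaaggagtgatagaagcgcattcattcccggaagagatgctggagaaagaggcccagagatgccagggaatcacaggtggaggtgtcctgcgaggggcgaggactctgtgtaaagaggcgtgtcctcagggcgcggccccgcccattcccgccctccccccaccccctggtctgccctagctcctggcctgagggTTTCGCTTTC

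Fas (19qC1) encodes the death receptor CD95, whose ligand is Fasl. At the probe to NM_001146708 the relative signal was 0.596 in wild-type untreated cells, 3.80 with R848, 0.473 in knockout untreated cells and 4.46 with R848. At the probe to NM_007987 it was 0.0715, 0.814, 0.155 and 1.38. Both R848 arrays were far above both untreated arrays at each of these curated mRNAs. The first was 6.37-fold higher with R848 in wild type (2.67 ± 0.21) and 9.43-fold higher in the knockout (3.24 ± 0.21). The second was 11.4-fold higher in wild type (3.51 ± 0.30) and 8.91-fold higher in the knockout (3.15 ± 0.23). The differences of responses, 0.57 ± 0.29 and -0.35 ± 0.37, were each within 2 errors, and with normexp the latter was 0.29. At the probe to NM_007987 the knockout was 2.16-fold above wild type untreated (1.11 ± 0.31) and 1.69-fold above it with R848 (0.76 ± 0.21), while at the probe to NM_001146708 the same differences were -0.33 ± 0.21 and 0.23 ± 0.20. With normexp the untreated difference at NM_007987 was 0.27, under 2-fold.

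The remaining probe with the symbol Fas is designed to L15353, described in the authors' table as a Fas mRNA that holds the long terminal repeat of an ETn retrotransposon, and that table places it at 4qA5 and not on the chromosome of Fas. It read 0.514 in wild-type untreated cells, 0.230 with R848, 0.365 in knockout untreated cells and 0.270 with R848. The signal was 2.24-fold lower with R848 in wild type (-1.16 ± 0.23) and differed by -0.44 ± 0.22 in the knockout, against the direction of both other probes. With normexp its wild-type response was -0.55, under 2-fold. Whether this probe reads Fas transcripts was not tested.

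The promoter of Fas is shown for its AP-1 match at -211 to -205, the same 7 letters (TGAGTCA) as in Tnfsf13b. It lies at chr19:34290409-34290658, plus strand (RefSeq, GRCm38.p6).
Fas: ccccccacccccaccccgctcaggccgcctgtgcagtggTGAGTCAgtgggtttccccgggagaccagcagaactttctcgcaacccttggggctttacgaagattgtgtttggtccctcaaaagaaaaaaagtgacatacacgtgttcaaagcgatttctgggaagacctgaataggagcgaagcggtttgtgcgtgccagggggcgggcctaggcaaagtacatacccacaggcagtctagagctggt

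**Figure D2:**
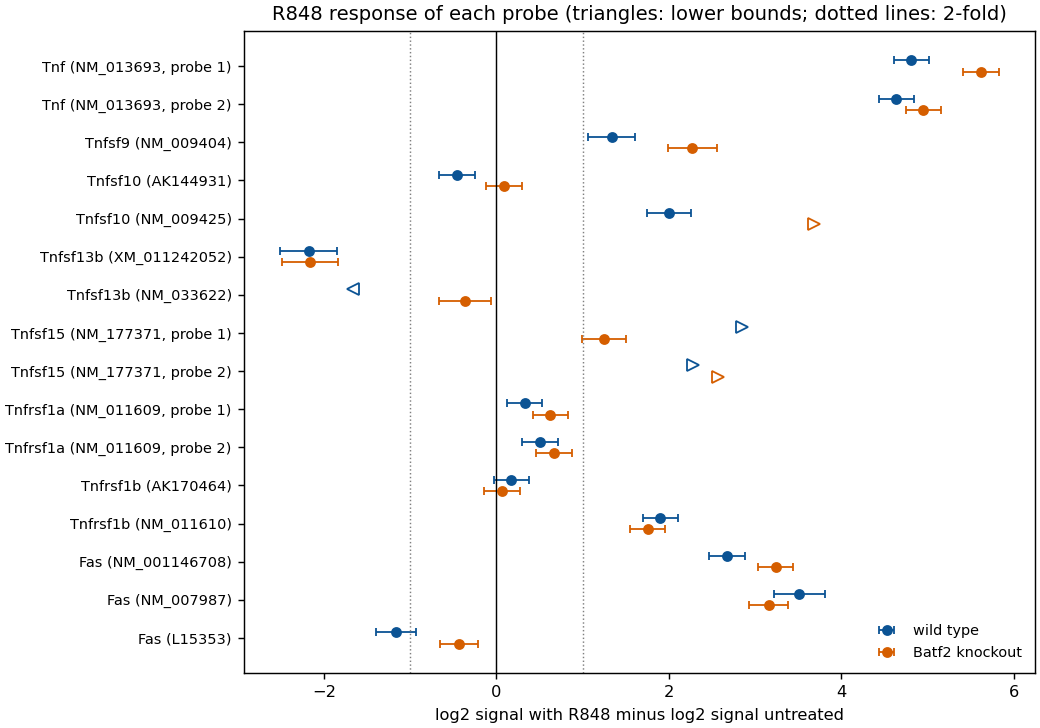
log2 difference between R848 and untreated cells for each of the 16 probes in wild type and knockout, with the scanner software's error as bars and open triangles for lower bounds. In each genotype 9 probes lie at or beyond 2-fold higher; 3 lie beyond 2-fold lower in wild type and 1 in the knockout.

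Counted by probe, 9 of the 16 were at least 2-fold higher with R848 in each genotype, against 6.15% of all probes measured in wild type and 6.45% in the knockout. In wild type 3 probes were at least 2-fold lower, those to XM_011242052, NM_033622 and L15353, against 7.47% of all probes. In the knockout 1 was lower, the probe to XM_011242052, against 6.95%. All 9 higher probes were designed to curated mRNAs of Tnf, Tnfsf9, Tnfsf10, Tnfsf15, Tnfrsf1b and Fas. Of the 7 genes with more than 1 probe, the probes of Tnf, Tnfsf15 and Tnfrsf1a gave the same calls in both responses, and those of Tnfsf10, Tnfsf13b, Tnfrsf1b and Fas did not.

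Between genotypes, the brightest probe gave 1 of the 8 genes at least 2-fold higher in knockout untreated cells, Tnfsf15 as a lower bound, and 0 lower, where 2.97% and 3.36% of all genes were called. With R848 it gave 0 of 8 in either direction, where 2.54% of genes were higher and 2.58% lower. The median difference was -0.24 untreated and 0.16 with R848, against 0.06 and 0.04 over all genes. In untreated cells 6 of the 8 genes had a value below 0, and with R848 6 of 8 had a value above 0. The share of all genes on each side of 0 was not counted, so these counts describe the 8 genes only. The R848 count depends on the centring: Tnfrsf1b stood at 0.045, and centring on the median moved that comparison by -0.047. Most of the genotype differences are within 2 errors. Of the 13 probes measured on both untreated arrays, 4 were beyond 2 errors, 1 higher in the knockout (Fas, NM_007987) and 3 lower (Tnf probe 1, Tnfsf13b NM_033622 and L15353). Of the 15 measured on both R848 arrays, 3 were beyond 2 errors, all higher in the knockout: Tnfsf9, Tnfsf10 NM_009425 and Fas NM_007987. The share of all probes beyond 2 errors was not counted, so these counts describe the member probes only. Counted by probe, 2 of 15 untreated were at least 2-fold higher and 1 lower, against 3.03% and 3.53% of all probes, and 0 of 16 with R848 in either direction, against 2.54% and 2.72%. At the curated mRNA probes the untreated calls were 1 higher (2.8% of genes) and 1 lower (3.76%), the latter Tnfsf10, and with R848 again 0 in either direction (2.59% and 2.75%).

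For the difference of responses, knockout minus wild type, the brightest probe gave 0 genes at least 2-fold higher (3.86% of genes) and 1 lower, Tnfsf15 (4.39%). At the curated mRNA probes it gave 2 higher, Tnfsf10 and Tnfsf13b (3.89%), and 1 lower, again Tnfsf15 (4.15%). Counted by probe, the same 2 were higher (4.19% of all probes) and 1 was lower (5.16%) of 16. The 16 include Tnfsf15 probe 2, for which no difference of responses could be measured. Each of these 3 calls has 1 array that was not well above background. The median difference was 0.42 at the brightest probe and 0.69 at the curated mRNA probes, against -0.03 over all genes at the brightest probe. Of the 12 probes measured on all 4 arrays, 3 had a difference of responses beyond 2 errors, all larger in the knockout: Tnf probe 1, Tnfsf9 and L15353. Tnf probe 2, to the same mRNA as probe 1, was within 2 errors (0.31 ± 0.29), and whether L15353 reads Fas transcripts was not tested. Here too the share of all probes beyond 2 errors was not counted.

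**Figure D3:**
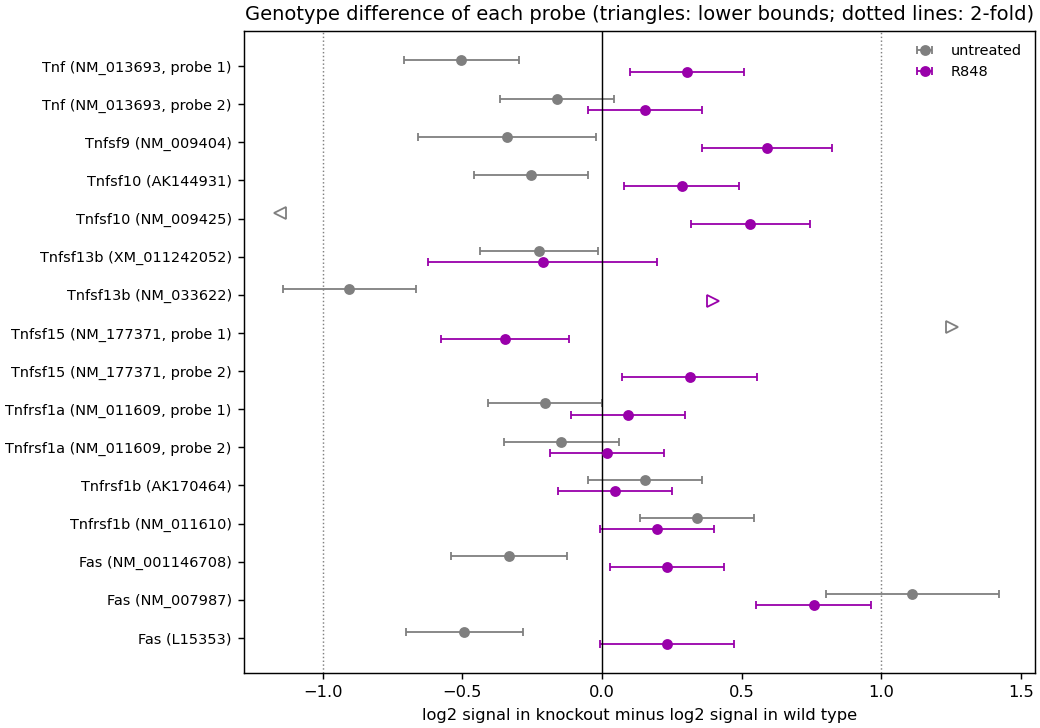
log2 difference between knockout and wild type for each probe, untreated (grey) and with R848 (purple), with the scanner software's error as bars and open triangles for lower bounds. With R848 none of the 16 probes is called at 2-fold, and the value of Tnfsf13b NM_033622 is a lower bound only. Untreated, the probes to Tnfsf15 (probe 1) and Fas NM_007987 lie beyond 2-fold higher and Tnfsf10 NM_009425 beyond 2-fold lower.

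Markers of other bone marrow cells also differed between genotypes. The summed relative signal of 7 basophil and mast cell markers, among them Mcpt8 and Cpa3, was 21.2 in wild-type untreated cells, 10.0 with R848, 1.58 in knockout untreated cells and 0.762 with R848, with 7, 7, 6 and 3 of the 7 well above background. That of 7 neutrophil and granule markers, 6 of which were measured, was 195, 116, 75.4 and 65.7. Both sums were lower on both knockout arrays than on either wild-type array. Such sums are carried by their brightest probes. Of the 7 basophil and mast cell markers, 6 were at least 2-fold lower in the knockout both untreated and with R848. Fcer1a was the 1 marker within 2-fold, at -0.13 ± 0.28 untreated and lower by at least 0.61 with R848. Of the 6 neutrophil markers, Mpo, Elane and Ctsg were over 2-fold lower in the knockout untreated and with R848, whereas Camp, Ngp and Retnlg lay within 2-fold, with Retnlg above wild type with R848 (0.60). The part of these markers in the genotype differences above was not tested. The sum of the 8 macrophage markers was 636, 686, 734 and 808. The T cell list had 5 of 7 markers well above background, with sums of 12.8 to 15.1, and the B cell list all 5, with sums of 5.76 to 7.15. The NK cell list had 4 of 5 markers measured, with sums of 4.85 to 5.66. Single markers of the T cell, B cell and NK cell lists differed more than the sums of these lists. Cd8a was 4.83-fold lower in the knockout with R848, and Cd79b and Klrk1 were 2.13-fold and 4.36-fold lower there untreated. Klrb1c was at least 2.10-fold higher in the knockout with R848. No other marker of these lists was called between genotypes. Of 4 endothelial markers 3 were measured. They summed to 0.677 and 0.727 on the wild-type arrays and 0.230 and 0.297 on the knockout arrays, with 1 to 3 of them well above background.

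For other genes of the family and its pathways, lists were read at the brightest probe. Over all genes, 6.34% were higher and 7.34% lower in the wild-type response, and 7.06% and 6.93% in the knockout. Between genotypes 2.97% were higher and 3.36% lower untreated, and 2.54% and 2.58% with R848. The list counts below are to be read beside these shares. Other probes of a gene could give another call, and their values may be lower bounds. Timp3, Zfp36l1 and Tnfrsf22, for example, lay within 2-fold at the brightest probe in both responses. Their lowest probes read -1.55, -1.81 and -1.19 in wild type and -2.16, -1.25 and -1.40 in the knockout. The highest knockout response of a Tnfrsf14 probe was 2.12, against 0.52 at its brightest. Of 13 other ligands, 9 could be measured in the wild-type response, where 4 were at least 2-fold higher and 2 lower (median 0.24), and 10 in the knockout, where 2 were higher and 1 lower (median -0.16). Lta, which encodes lymphotoxin-alpha, also a ligand of the TNF receptors, was higher in both (1.85 and 1.71). Ltb, its partner in the membrane-bound lymphotoxin heterotrimer, was 1.07 in wild type and 0.31 in the knockout, and 2.30-fold lower in the knockout with R848 (-1.20 ± 0.21). Tnfsf4, the OX40 ligand, was higher by at least 2.11 and 2.58 on the log2 scale. Tnfsf12, which encodes TWEAK, was lower in both (-1.81 and -1.54). Tnfsf14, which encodes LIGHT, was lower in wild type (-1.49) and by -0.56 in the knockout, and it was also lower in knockout than in wild-type untreated cells (-1.48). Tnfsf18, the GITR ligand, was higher by at least 1.47 in wild type, was not measured as a response in the knockout and was lower there with R848 by at least 1.06. Eda was higher in knockout untreated cells by at least 1.24. Between genotypes, 1 ligand was higher and 1 lower of 9 measured untreated, and 0 were higher and 2 lower of 10 with R848.

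Of 25 other receptors, 21 were measured in each response. In wild type 1 was higher and 5 lower (median -0.32), and in the knockout 1 was higher and 3 lower (median -0.26). The higher one in both was Cd40, the receptor through which T cells stimulate macrophages and B cells. Its relative signal was 0.153 in wild-type untreated cells, 2.19 with R848, 0.0661 in knockout untreated cells and 2.37 with R848. The R848 arrays were close to each other and the untreated knockout array was lowest, with responses of 3.84 in wild type and 5.16 in the knockout and an untreated difference of -1.21. The lower receptors in both were Tnfrsf23 (-2.02 and -1.5), Tnfrsf26 (-1.88 and -2.70), which lie in one cluster of TNF receptor genes, and Tnfrsf18, the GITR receptor (at least 1.51 and 1.0 lower on the log2 scale). The knockout response of Tnfrsf18 was under 2-fold with quantile normalization (-0.82) and with median centring (-0.86). At the highest of the 3 probes of Tnfrsf23 the wild-type response was -0.25. Tnfrsf11b, the decoy receptor osteoprotegerin, was at least 1.93 lower in wild type and -0.73 in the knockout. Cd27 was at least 1.33 lower in wild type. Cd27 and Tnfrsf18 were also lower in knockout than wild-type untreated cells, by at least 2.0 and by 1.01, and Tnfrsf11b was at least 1.26 higher in the knockout with R848. Between genotypes, 0 receptors were higher and 3 lower of 22 measured untreated, and 1 was higher and 0 lower of 17 with R848.

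Of the 28 genes for signalling proteins that act next to the receptors, all measured, 7 were at least 2-fold higher after R848 in wild type and 10 in the knockout. The other 21 and 18 lay within 2-fold, some of them below 0, so that 0 were called lower, and the medians were 0.39 and 0.38. That count holds at the brightest probe only. The lowest probe of Sharpin read -1.20 in wild type, and that of Traf6 -1.01 in wild type and -1.19 in the knockout. Traf1, a TRAF adaptor that binds TNFR2, had a relative signal of 2.34 in wild-type untreated cells, 34.7 with R848, 0.817 in knockout untreated cells and 20.5 with R848. Its responses were 3.89 and 4.65, and it was lower in the knockout untreated (-1.52) and by -0.76 with R848. Tnfaip3, which encodes the ubiquitin-editing inhibitor A20, was higher by 3.05 and 3.19, and Tnip1, which encodes an A20 partner, by 2.79 and 2.20. Cflar, which encodes the caspase-8 inhibitor c-FLIP, was higher by 2.22 and 2.36, Traf2 by 1.64 and 1.93, and Birc3, which encodes the ubiquitin ligase cIAP2, by 1.80 and 1.56. The 5 probes of Cflar ran from 0.55 to 3.40 in wild type and from 0.64 to 3.69 in the knockout. Tank was higher by 1.28 and 1.20, and the lowest of its 4 probes gave 0.49 in the knockout. Mlkl, the executor of necroptosis, was higher by 0.99 in wild type and 2.23 in the knockout, Fadd, the death domain adaptor, by 0.40 and 1.23, and Traf5 by 0.95 and 1.82. These 3 genes passed 2-fold in the knockout only, and the difference of responses reached 2-fold for Mlkl (1.24) and not for Fadd (0.84) or Traf5 (0.87). Traf5 was also higher in the knockout with R848 (1.11), a difference of 0.98, under 2-fold, once a local shift across each array was taken off. Between genotypes, 0 of these 28 genes were higher and 1 lower untreated, and 1 was higher and 0 lower with R848.

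Of 11 genes that act on the shedding of TNF family proteins or on the decay of Tnf mRNA, 10 were measured in wild type, with 3 higher and 1 lower (median 0.01), and 11 in the knockout, with 4 higher and 1 lower (median -0.15). Adam17, the protease that cuts TNF and its receptors from the cell surface, was higher by 1.31 and 1.63, and Rhbdf2, which encodes its partner iRhom2, by 1.77 and 1.65. Rhbdf1, which encodes iRhom1, was higher by 1.81 in the knockout and at least 1.23 higher there than in wild type with R848. Zc3h12a, which encodes the RNase regnase-1, was higher by 2.98 and 3.79. Zfp36l2, which encodes a relative of the Tnf mRNA decay factor tristetraprolin, was lower in both (-1.37 and -1.42). Between genotypes, 0 of these 11 genes were called untreated, and 1 was higher and 0 lower with R848. The share of called genes in each of these 4 lists is to be read beside the shares over all genes given before the lists. With normexp the calls of Ltb, Tnfsf4, Tnfsf18, Eda, Cd27, Tnfrsf11b, Tnfrsf18, Tnfrsf23 and Rhbdf1, the untreated difference of Cd40 and the difference of responses of Mlkl fell short of 2-fold. The calls of Eda and the genotype difference of Rhbdf1 also ended when the probes of a gene were averaged.

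**Figure D4:**
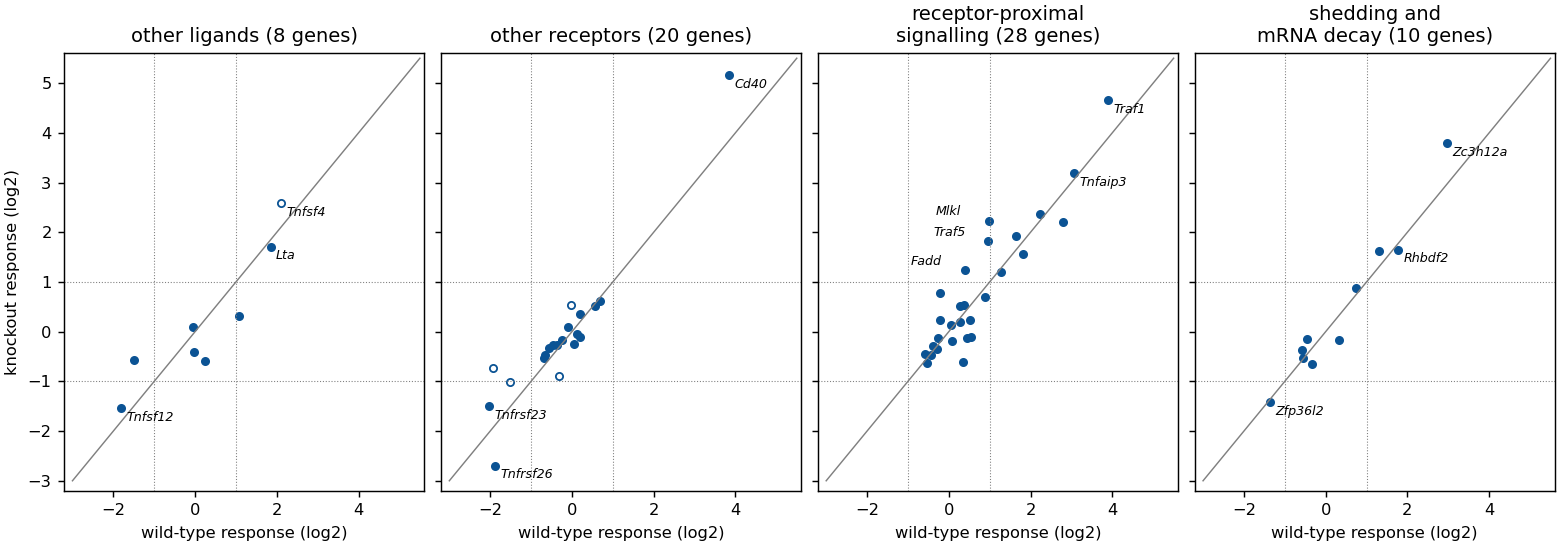
Knockout against wild-type R848 response (log2) for the genes of the 4 lists measured in both, with open circles where either value is a lower bound, dotted lines at 2-fold and the diagonal for equal responses. Cd40, Traf1, Tnfaip3 and Zc3h12a lie far to the upper right, and Mlkl, Traf5 and Fadd lie above the diagonal past 2-fold in the knockout only.

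Genes with a pattern like that of a member were searched for among 9822 candidates. A candidate was well above background on all 4 arrays. On at least 1 array it also reached the percentile that signals are given relative to. The first condition alone left 17090 genes, so the dimmer of these were not searched. Likeness was the Euclidean distance between log2 values after each gene's mean was taken off. The genes named here are the candidates whose pattern over the 4 arrays was most like that of a member. For Tnf they were Ednrb (0.33), Fpr2 (0.49) and Cxcl5 (0.55) at probe 1 and Cxcl5 (0.32), Gbp2 (0.35) and Ccl5 (0.42) at probe 2. Cxcl5, a chemokine gene, was in both sets. For Tnfsf9 they were Calcrl (0.08), Pla2g4a (0.12) and Irgm1 (0.13). For Fas they were Farp2 (0.08), Rassf4 (0.16) and Nlrp3 (0.20) at NM_001146708 and Mcoln2 (0.48), Fabp3 (0.53) and Malt1 (0.53) at NM_007987. For Tnfsf13b they were Gpr65 (0.19), Kiz (0.21) and Ncapg2 (0.22) at the predicted transcript, and for Tnfrsf1b at NM_011610 Lmntd2 (0.02), AI845619 (0.08) and Ube2e2 (0.09). With 4 arrays, such likeness is a description of these arrays, and the clone probes of Tnfsf10 and Tnfrsf1b and both Tnfrsf1a probes, whose responses were all under 2-fold, had neighbours at distances of 0.01 to 0.06.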

How the data were processed

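Labelled cRNA from 4 samples was read on 1-colour Agilent arrays, and the spots were quantified by Agilent Feature Extraction (version 11.5.1.1, as named in the submitters' processing notes). The deposited scanner files hold intensity on a linear scale, from which the software had already taken background and a spatial trend, per the file headers. The columns of log2 ratios between arrays that the authors deposited were not used. The authors' table of scaled intensity equals the processed signal times 1 factor per array (3.72 to 4.13), within 1% for 100% of 39374 spots. The column medians were 675 to 720, and what the scale refers to is unknown.

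Here log2 of the processed signal minus the 75th percentile of the array was taken (Python 3.11.15, pandas 2.3.3, numpy 2.4.6). Spots with outlier flags were left out, and a gene stood at its brightest probe well above background on at least 1 array. Symbols were given to 40458 of 56605 probes through RefSeq tables and the authors' table. Alternatives were normexp (offset 50) and quantile normalization (limma 3.58.1 in R 4.3.3), median centring, the authors' table, other filters, the mean over probes, flagged spots kept and, added after the data were seen, curated RefSeq probes and a local shift over 21 by 21 spots. Normexp used the median spot signal in place of the mean. Probes spotted 10 times per array had an SD between spots of 0.070 to 0.082 on the log2 scale for differences of 2 arrays, and of 0.19 to 0.30 at a mean intensity under 100, which is where several member probes lie.

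The members and gene lists were chosen with earlier results of these data known. Named were the 8 members and every list gene at least 2-fold different (up to the 8 largest per list in a response). The 3 genes nearest in pattern among the candidates searched were also named. With 1 array per group no test was run. A model of genotype plus treatment without their interaction, which would leave 1 residual degree of freedom over the 4 arrays, was not run either.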

Additional observations from a re-analysis of the deposited data

How the results depend on the processing

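Pairing by replicate was not possible because each group has 1 array, so the groups compared share fewer than 2 replicate numbers, and no replicate could be left out. Genotype or treatment as a block was not run. No direction of a called value reversed. Of 40 member values (8 genes in 5 comparisons), the 2-fold call held in all 40 with median centring, the authors' table, no filter on dim probes, flagged spots kept and the local shift, in 39 with quantile normalization, 36 with the mean over probes, 33 with normexp and 32 with curated RefSeq probes, and in all 37 that remained when each array compared had to be well above background. Counts of members that moved by over 1.5 times were as follows. With normexp, members lower fell from 1 to 0 in each response, members higher in the knockout response from 4 to 2, members higher untreated from 1 to 0, and smaller responses from 1 to 0. Larger knockout responses went from 0 to 1 under quantile normalization (Tnfsf9). The mean over probes also gave 1, and it gave 0 smaller ones against 1. When each array compared had to be well above background, both the untreated higher count and the smaller-response count were 0. With curated RefSeq probes, knockout lower was 0, untreated lower 1 and larger responses 2.

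Over all genes (higher and lower), normexp gave 717 and 591 in wild type, 827 and 570 in the knockout, 124 and 232 between untreated genotypes, 115 and 155 between R848 genotypes, and 208 and 178 for responses that differed, against 1189 and 1375, 1401 and 1374, 603 and 681, 477 and 483, and 796 and 905. The authors' table gave 390 higher untreated and 469 smaller responses. Without a filter there were 2334 lower in wild type, 2360 lower in the knockout, 1531 and 1224 between untreated genotypes, 1422 and 872 between R848 genotypes, and 1783 and 1808 for responses that differed. The stricter filter gave 340 higher untreated, 278 higher with R848, and 429 larger and 360 smaller responses. Of 63 called values of list genes, normexp kept 37. Signals near background limit the dim probes of Tnfsf9, Tnfsf10, Tnfsf13b and Tnfsf15, where the normexp offset by itself shrinks the folds.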
